A study of Mus musculus with 16 samples.

Results

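A set of 9 lipogenic genes, chosen by name, was followed through mammary adipose RNA-Seq: Acly, Acaca, Acacb, Fasn, Me1, Acss2, Slc25a1, Aacs and Pgd. They make up 9 of the 23179 genes listed in the expression table, and all 9 passed the filter on low counts, which left 21218 genes. The study took the mammary fat pad on the side opposite an implanted tumor from wild-type C57BL/6N mice in 4 groups, with 4 libraries each. CON-LFD mice received a control low-fat diet throughout with sham surgery. DIO-HFD mice were made obese on a diet with 60% fat, stayed on it and had sham surgery. DIO-LFD mice were made obese in the same way and were then moved to the low-fat diet with sham surgery. DIO-VSG mice were made obese, underwent vertical sleeve gastrectomy (removal of part of the stomach) and then ate the low-fat diet. DIO-HFD was the only group still on the high-fat diet, and the paper reports it as heavier than every other group at the end. Current diet and body weight thus cannot be told apart in comparisons with DIO-HFD. Mice of all 4 groups had been injected with E0771 mammary cancer cells in the opposite fat pad 22 weeks after the diets began, so no group was free of tumor. The labels also enter E0771 and mouse mammary cancer as the cell line and cell type of these libraries, although the tissue entry is normal mammary tissue. The 4 libraries of a group were treated as separate mice, as the animal numbers in the labels imply.

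These genes encode the cytosolic route from citrate and acetate to palmitate. Citrate leaves the mitochondrion through the carrier Slc25a1, ATP-citrate lyase (Acly) splits it into acetyl-CoA and oxaloacetate, and Acss2 makes acetyl-CoA from acetate. The acetyl-CoA carboxylases Acaca and Acacb turn acetyl-CoA into malonyl-CoA, and fatty acid synthase (Fasn) builds palmitate from it at the cost of NADPH, which malic enzyme (Me1) and 6-phosphogluconate dehydrogenase (Pgd) supply. Aacs activates acetoacetate, a ketone body, for lipid synthesis. In adipose tissue and liver this route is known to follow insulin and carbohydrate intake, and dietary fat is known to lower it.

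The libraries held between 46907377 and 57610899 reads, and the size factors lay between 0.904 and 1.22. Every adipocyte marker of a list of 12 was detected in every library above 3 reads, and their summed normalized count ran from 1090899 to 1950861 in CON-LFD, 635877 to 1931343 in DIO-HFD, 1206460 to 2136643 in DIO-LFD and 958864 to 1355959 in DIO-VSG. Immune content was uneven: the sum of 10 B cell markers ran from 341 to 79655 in CON-LFD and from 1147 to 105669 in DIO-HFD, against 18854 to 43107 in DIO-LFD and 71893 to 83576 in DIO-VSG. The library of DIO-LFD replicate 1 stood apart in its red blood cell markers, at 463553 against 18120 to 55805 in the other 15. The sum of 10 skeletal muscle markers was 891 to 3243 in DIO-HFD, 2331 to 31977 in CON-LFD, 1415 to 138713 in DIO-LFD and 491 to 23088 in DIO-VSG. In bulk tissue, fewer cells of a type and less RNA per cell cannot be told apart.

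All 9 lipogenic genes had their lowest group mean in DIO-HFD, and 8 of them were lower than in the pooled low-fat-fed groups at an unadjusted p below 0.05, where 6.66% of all genes were. Together they took between 0.0937% and 0.181% of the reads of a DIO-HFD library. In CON-LFD that share was 0.325% to 1.22%, in DIO-LFD 0.249% to 1.98% and in DIO-VSG 0.246% to 1.72%. The share in each of the 4 DIO-HFD libraries was thus below that in each of the 12 others. This sum leans on Fasn, which alone took 0.04015% (DIO-LFD replicate 1) to 1.325% (DIO-LFD replicate 2) in the low-fat-fed libraries. No single gene passed the threshold of 0.05 after adjustment over all genes tested, so the fold changes below are described as estimates with their errors.

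**Figure D1:**
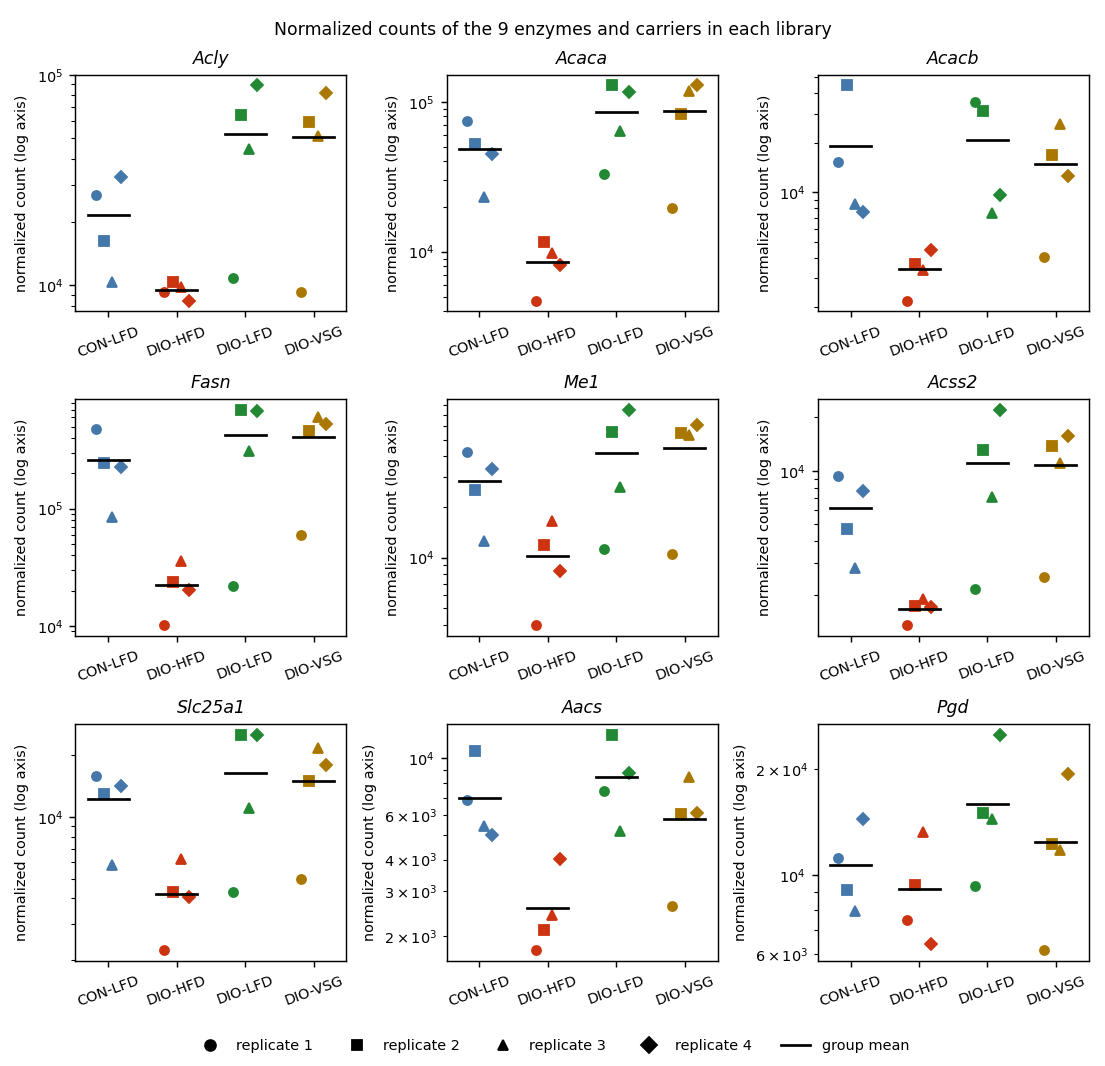
Normalized count (log axis) of each of the 9 genes in the 16 libraries, with groups on the horizontal axis, symbols for replicate numbers and a bar for the group mean. The 4 DIO-HFD libraries of Acaca lie between 4711.8 and 11639.7, below the other 12, and the circle of DIO-VSG is the lowest of its group in every panel.

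Against CON-LFD, all 9 genes had lower estimates in DIO-HFD, with a median log2 fold change of -1.53 beside 0.02 over all genes tested. In the limma fit 0 of the 9 passed the adjusted threshold, as did 0.0377% of all genes. At an unadjusted p below 0.05, 7 were lower in DIO-HFD, where 7.66% of all genes were. The estimates ran from -3.42 for Fasn to -0.24 for Pgd, and the smallest adjusted p among them was 0.176, for Acaca (limma). The count of 7 became 4 relative to adipocyte markers (161 of all genes) and 4 without CON-LFD replicate 1 (1128 of all genes). Of 12 adipocyte markers 11 had lower estimates in DIO-HFD, with a median of -0.44 and 0 at an unadjusted p below 0.05.

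From DIO-HFD to DIO-LFD the median estimate was 2.11 on the log2 scale, beside 0.01 over all genes. All 9 genes were higher in DIO-LFD at an unadjusted p below 0.05, where 5.37% of all genes were. After adjustment 0 of the 9 passed in limma, and 0% of all genes did, with a smallest adjusted p among the 9 of 0.296.

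From DIO-HFD to DIO-VSG the median was 2.04, beside 0.02 over all genes. Here 8 of the 9, all but Pgd, were higher at an unadjusted p below 0.05, against 5.05% of all genes. Of the 9 genes 0 passed after adjustment, as did 0% of all genes, and the smallest adjusted p among the 9 was 0.243 (limma). These 3 comparisons share the DIO-HFD libraries, so their values stand side by side and are not independent of each other.

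With the 12 low-fat-fed libraries pooled, the median log2 fold change in DIO-HFD was -1.82, beside -0.01 over all genes. At an unadjusted p below 0.05, 8 of the 9 were lower, against 6.66% of all genes, and 0 passed after adjustment, as did 0% of all genes. Acaca ranked 4 of 21218 genes by p, with an adjusted p of 0.103 in limma. A voom fit on the recovered reads likewise called 0 of the 9 in each of these 4 comparisons. A limma fit that weights libraries by their scatter called 6 against CON-LFD, 7 between DIO-LFD and DIO-HFD, 8 between DIO-VSG and DIO-HFD and 9 in the pooled comparison, but it also called 19.8%, 8.54%, 17.6% and 20.5% of all genes.

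**Figure D2:**
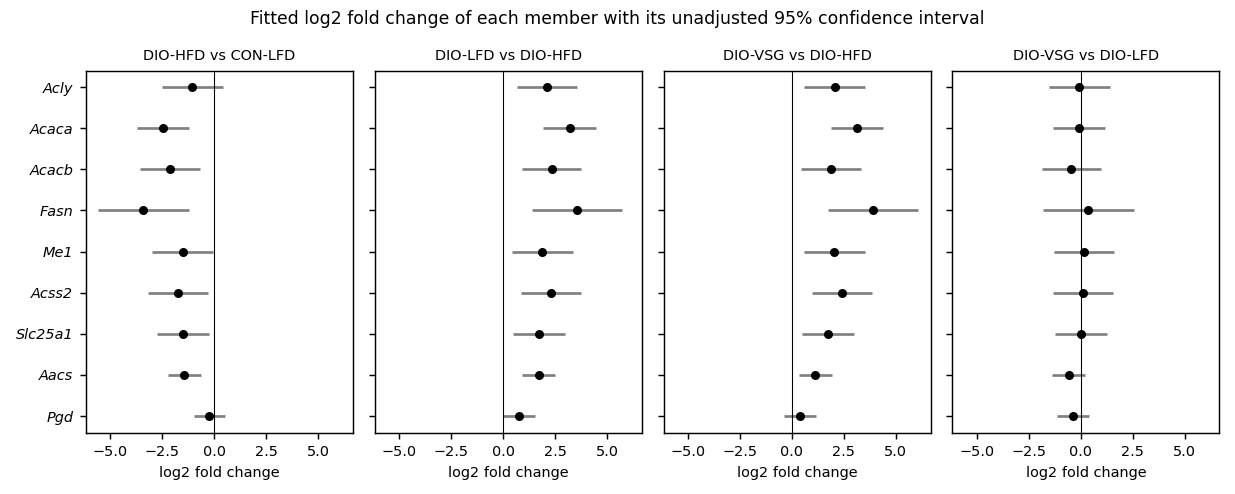
Fitted log2 fold change of each gene (points) with its unadjusted 95% confidence interval (lines) in 4 comparisons. The estimates of the 9 genes lie below 0 for DIO-HFD against CON-LFD, above 0 for both weight loss groups against DIO-HFD, and between -0.59 and 0.36 for DIO-VSG against DIO-LFD.

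Of the genes that supply cytosolic acetyl-CoA, Acly measured 26865.9, 16168.2, 10344.8 and 32743.7 normalized counts in CON-LFD replicates 1 to 4, and 9248.7, 10375.9, 9809.6 and 8445.4 in DIO-HFD. It measured 10877.9, 64271.9, 44558.7 and 89157.5 in DIO-LFD, and 9260.6, 59500.0, 51269.8 and 82080.0 in DIO-VSG. The DIO-HFD libraries lay close together, while the other groups each had 1 library at or near the DIO-HFD level, CON-LFD replicate 3, DIO-LFD replicate 1 and DIO-VSG replicate 1. The means were 21530 ± 10130 in CON-LFD and 9470 ± 823.6 in DIO-HFD (SD, n = 4), which the fit put at -1.05 on the log2 scale (SE 0.68, limma adjusted p = 0.545). The estimate was 2.11 (SE 0.68, limma adjusted p = 0.456) for DIO-LFD and 2.05 (SE 0.68, limma adjusted p = 0.283) for DIO-VSG, both against DIO-HFD.

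Acss2, which activates acetate in the cytosol and nucleus, measured 9355.2, 4709.2, 2829.3 and 7651.9 in CON-LFD and 1342.7, 1717.5, 1889.2 and 1702.7 in DIO-HFD. In DIO-LFD it measured 2153.1, 13137.5, 7134.7 and 22057.7, and in DIO-VSG 2499.8, 13843.1, 11034.4 and 15789.1. None of the 12 low-fat-fed libraries reached down into the DIO-HFD range. The pooled estimate was -2.16 (SE 0.55), or 4.46-fold lower in DIO-HFD, with a limma adjusted p of 0.177. For the citrate carrier Slc25a1 the DIO-HFD libraries ran from 2239.3 to 6260.4, with a mean of 4214 ± 1644 (SD, n = 4). Its means were 12210 ± 4428 in CON-LFD, 16430 ± 10490 in DIO-LFD and 14930 ± 7226 in DIO-VSG. DIO-LFD replicate 1, DIO-VSG replicate 1 and CON-LFD replicate 3 fell inside the DIO-HFD range, and the pooled estimate was -1.66 (SE 0.48, limma adjusted p = 0.212).

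Among the carboxylases, which commit acetyl-CoA to fatty acid synthesis, Acaca had the smallest p of the 9 in the pooled comparison. It measured 74054.5, 52503.5, 23296.6 and 44972.6 in CON-LFD and 4711.8, 11639.7, 9778.0 and 8210.2 in DIO-HFD. In DIO-LFD it measured 33001.6, 128797, 63858.7 and 116118, and in DIO-VSG 19534.5, 83395.1, 118106 and 128629. The lowest of the 12 low-fat-fed libraries, DIO-VSG replicate 1, was above the highest DIO-HFD library. Against DIO-HFD the estimate was 3.20 (SE 0.59, limma adjusted p = 0.296) in DIO-LFD and 3.11 (SE 0.59, limma adjusted p = 0.243) in DIO-VSG. DIO-HFD was 5.51-fold lower than CON-LFD (log2 fold change -2.46, SE 0.59) and 7.60-fold lower than the pooled groups (-2.93, SE 0.48). Single libraries decided the pooled call: limma gave Acaca an adjusted p of 0.0406 without CON-LFD replicate 3, 0.0229 without DIO-VSG replicate 1 and 0.0312 without DIO-LFD replicate 1. The first and second of those fits called 1 of the 9 genes and the last called 2, Acaca and Fasn, beside 0.0895%, 0.00471% and 0.0471% of all genes.

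Acacb, the carboxylase of the outer mitochondrial membrane whose malonyl-CoA restrains fatty acid oxidation, measured 15163.4, 44532.3, 8496.1 and 7525.3 in CON-LFD and 2187.5, 3664.1, 3372.5 and 4424.7 in DIO-HFD. In DIO-LFD it measured 35103.4, 31239.3, 7502.5 and 9539.4, and in DIO-VSG 4054.6, 16837.3, 26041.9 and 12541.3. DIO-LFD replicate 1 was the highest library of its group for Acacb, although it was the lowest of its group for 7 of the 9 genes. Only DIO-VSG replicate 1 overlapped the DIO-HFD range, and the pooled estimate was -2.12 (SE 0.55, limma adjusted p = 0.181). Markers of thermogenic adipocytes were low in DIO-HFD as well: the sum of 8 markers was 448 to 1433 there, against 2538 to 53826 in CON-LFD, 3423 to 9563 in DIO-LFD and 1161 to 38851 in DIO-VSG. All 8 had lower estimates in DIO-HFD than in the pooled groups, 7 of them at an unadjusted p below 0.05, where 6.66% of all genes were lower. Skeletal muscle markers also had lower estimates in DIO-HFD, 10 of 10 with a median of -1.91 and 2 at an unadjusted p below 0.05. Of 11 mammary epithelium markers 7 had lower and 4 higher estimates, with a median of -0.54. At an unadjusted p below 0.05, 4 of them were lower. Of 7 tested keratinocyte markers 7 had higher estimates, with a median of 1.55 and 2 at an unadjusted p below 0.05, where 4.98% of all genes were higher. In the other lists 0 markers reached an unadjusted p below 0.05. Estimates there were lower for 10 of 10 B cell (median -1.04), 9 of 10 T cell (-0.90) and 9 of 12 adipocyte markers (-0.27). They were higher for 10 of 10 macrophage (0.32), 6 of 6 endothelial (0.33) and 6 of 7 stromal progenitor markers (0.49). Red blood cell markers split 3 and 3. The part of these markers in the values of the 9 genes was not tested.

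Fasn, which assembles palmitate, had the largest estimate of the 9 genes in each comparison with DIO-HFD. It measured 474207, 245936, 84150.5 and 226136 in CON-LFD and 10120.4, 23536.1, 35461.2 and 20232.1 in DIO-HFD. In DIO-LFD it measured 21752.5, 694004, 310259 and 685104, and in DIO-VSG 60159.5, 455881, 604113 and 522963. DIO-LFD replicate 1 lay within the DIO-HFD range, 31.9-fold below the highest library of its own group, and the other 11 low-fat-fed libraries lay above that range. The pooled estimate was -3.62 (SE 0.83), 12.3-fold lower in DIO-HFD, with a limma adjusted p of 0.142. Against CON-LFD alone it was -3.42 (SE 1.02), 10.7-fold lower, with a limma adjusted p of 0.237. The wide error went with a spread of 75.8% of the mean (coefficient of variation) in DIO-LFD and 62.7% in CON-LFD.

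Me1 and Pgd, both sources of cytosolic NADPH, differed in how much they varied. Me1 measured 42267.7, 25263.2, 12481.3 and 33324.5 in CON-LFD and 3965.1, 11904.2, 16489.1 and 8370.0 in DIO-HFD. In DIO-LFD it measured 11240.4, 55160.5, 26201.2 and 75011.8, and in DIO-VSG 10543.7, 54700.6, 53103.9 and 60697.8. The groups overlapped at CON-LFD replicate 3, DIO-LFD replicate 1 and DIO-VSG replicate 1, and the pooled estimate was -1.82 (SE 0.55, limma adjusted p = 0.231). Pgd measured 11164.0, 9103.4, 7951.9 and 14463.7 in CON-LFD and 7489.7, 9420.9, 13253.0 and 6397.7 in DIO-HFD. It measured 9305.7, 14988.3, 14448.5 and 25018.2 in DIO-LFD, and 6151.9, 12287.1, 11817.5 and 19353.3 in DIO-VSG. Its DIO-HFD libraries overlapped every other group, and the pooled estimate was -0.46 (SE 0.29, 95% confidence interval -1.08 to 0.15, limma adjusted p = 0.566). Relative to the adipocyte markers, the Pgd estimate for DIO-HFD against CON-LFD turned from -0.24 to 0.17, and with library weights it was -0.72. The pooled Pgd estimate was -0.95 with library weights.

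Aacs, which serves lipid synthesis from ketone bodies, had means of 6968 ± 2578 in CON-LFD, 2584 ± 992.4 in DIO-HFD, 8434 ± 3023 in DIO-LFD and 5793 ± 2376 in DIO-VSG (SD, n = 4). Its DIO-HFD libraries, from 1767.4 to 4015.8, overlapped only DIO-VSG replicate 1, at 2637.7. The pooled estimate was -1.42 (SE 0.30, limma adjusted p = 0.119), and with library weights it was -0.80. Against DIO-HFD the estimate was 1.71 (SE 0.37, limma adjusted p = 0.296) in DIO-LFD and 1.12 (SE 0.37, limma adjusted p = 0.283) in DIO-VSG, the latter 0.53 with library weights. Over the alternative fits the DIO-LFD estimate ran from 1.01 to 1.94.

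Between the weight loss groups, DIO-VSG and DIO-LFD, the median estimate was -0.07, beside -0.02 over all genes. At an unadjusted p below 0.05, 0 of the 9 were lower in DIO-VSG, where 5.41% of all genes were, and 0 passed after adjustment, as did 0% of all genes (limma and voom). The 0% depended on the model. A limma fit on only the 8 libraries compared called 7.22% of all genes and library weights called 0.867%, with 0 of the 9 in both. The intervals were wide: the difference in Fasn was 0.36 on the log2 scale with a 95% confidence interval of -1.82 to 2.54, and that in Acaca was -0.09, from -1.35 to 1.17. Aacs had the smallest p of the 9, at -0.59 (SE 0.37, limma adjusted p = 0.542). Single libraries set the sign of the median, which was 0.53 without DIO-VSG replicate 1 and -0.55 without DIO-LFD replicate 1. Relative to adipocyte markers it was 0.34, beside 0.38 over all genes. Of these markers 12 of 12 had lower estimates in DIO-VSG than in DIO-LFD, with a median of -0.42 and 0 at an unadjusted p below 0.05.

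Against CON-LFD, the weight loss groups had higher means for most of the genes. In DIO-LFD all 9 estimates were above 0 with a median of 0.36, and 0 had an unadjusted p below 0.05, where 3.23% of all genes were higher, and 0 passed after adjustment, against 0.00471% of all genes (limma, and 0 of the 9 by voom). In DIO-VSG 7 of 9 were above 0 with a median of 0.49, and again 0 had an unadjusted p below 0.05, where 10.2% of all genes were higher, and 0 passed after adjustment, as did 0% of all genes (limma and voom). With library weights limma also called 0 of the 9, beside 19.9% of all genes. In that comparison B cell markers were higher at an unadjusted p below 0.05 in 10 of 10 (median 3.95) and T cell markers in 8 of 10 (median 2.68), and with a lymphoid score as covariate the median of the 9 genes was 0.84. Acly had the highest estimate in both, 1.06 (SE 0.68, limma adjusted p = 0.866) in DIO-LFD and 0.99 (SE 0.68, limma adjusted p = 0.413) in DIO-VSG. The Acly means of 52220 ± 33050 and 50530 ± 30440 (SD, n = 4) stood beside 21530 ± 10130 in CON-LFD, and the ranges overlapped. With 1 library left out the median ran from 0.12 (without DIO-LFD replicate 2) to 0.89 (without DIO-LFD replicate 1) in DIO-LFD, and from 0.04 (without CON-LFD replicate 3) to 1.12 (without DIO-VSG replicate 1) in DIO-VSG.

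Libraries of 1 group differed widely in these genes. The mean log2 deviation of the 9 genes from their 16-library averages was -1.49 ± 0.42 in DIO-HFD, 0.23 ± 0.59 in CON-LFD, 0.68 ± 0.97 in DIO-LFD and 0.58 ± 1.10 in DIO-VSG (SD, n = 4). The 4 DIO-HFD libraries held ranks 1 to 4 of 16, from -2.10 to -1.11. Next came DIO-VSG replicate 1 at -1.07, which had the lowest value of its group for 9 of 9 genes and lay within the DIO-HFD range for 5. CON-LFD replicate 3, at -0.62, was the lowest of its group for 7 genes. DIO-LFD replicate 1, at -0.58, had the widest range over the genes, from -2.62 for Fasn to 1.82 for Acacb. The highest means were those of DIO-LFD replicates 4 and 2, both at 1.45.

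**Figure D3:**
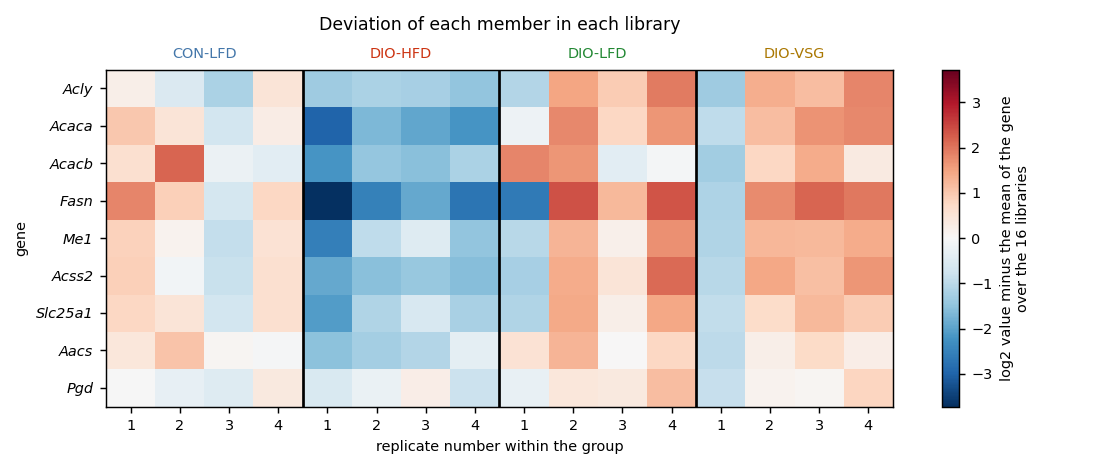
Deviation of the log2 value of each gene (rows) in each library (columns, by group and replicate number) from its 16-library mean, blue below and red above it. The DIO-HFD columns are blue for nearly all genes, DIO-VSG replicate 1 is blue throughout, and DIO-LFD replicate 1 runs from -2.62 for Fasn to 1.82 for Acacb.

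As a description over the 16 libraries, which share group and tissue composition, Acaca followed the mean of the other 8 genes most closely (Pearson r = 0.973), then Slc25a1 at 0.968 and Me1 at 0.962. Acacb followed them least (r = 0.644), followed by Pgd at 0.73 and Aacs at 0.804. Over the 36 pairs, r ran from 0.277 for Acacb with Pgd to 0.979 for Me1 with Slc25a1. After the group means were removed, the pairs ran from -0.03 for Acacb with Pgd to 0.975 for Acly with Acss2. Acacb was then at 0.086 with Acly and 0.164 with Fasn, but at 0.83 with Aacs.

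Ratios between genes in the same library, which do not depend on library scaling, asked whether steps of the route differed by the same amount. Of 6 ratios tested with exact two-sided permutation over 4 DIO-HFD and 12 low-fat-fed libraries, 1 passed after adjustment over the 6. The log2 ratio of Me1 to Pgd was -0.92, 0.34, 0.32 and 0.39 in DIO-HFD and 0.27 to 2.17 in the others. Its means were 0.03 ± 0.63 and 1.38 ± 0.63, a difference of -1.35 (exact permutation p = 0.0022, adjusted p = 0.0132). Only DIO-LFD replicate 1, at 0.27, lay inside the DIO-HFD range, and the call was lost without DIO-HFD replicate 1 (-1.04, exact permutation adjusted p = 0.0791). Against each low-fat-fed group alone the difference was -1.28 for CON-LFD, -1.12 for DIO-LFD and -1.66 for DIO-VSG, with exact permutation adjusted p of 0.0857, 0.514 and 0.0571. With 4 against 4 libraries the smallest unadjusted p possible is 0.0286, so these values say little about whether the difference holds in each group.

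The ratio of Acly to Acss2, the citrate and acetate routes to acetyl-CoA, was 2.52 ± 0.22 in DIO-HFD and 2.10 ± 0.30 in the low-fat-fed libraries, a difference of 0.42 (exact permutation p = 0.0264, adjusted p = 0.0791). It passed only without DIO-LFD replicate 1 (exact permutation adjusted p = 0.044) or without DIO-LFD replicate 3 (0.0286). Fasn over Acaca was 1.32 ± 0.38 in DIO-HFD against 2.02 ± 0.88 (difference -0.70, exact permutation adjusted p = 0.228). Without DIO-LFD replicate 1, whose ratio was -0.60, that difference became -0.94 (exact permutation adjusted p = 0.00659). Acaca over Acacb differed by -0.81 and Aacs over Acss2 by 0.74, each with an exact permutation adjusted p of 0.228. Slc25a1 over Acly differed by 0.07 (exact permutation adjusted p = 0.821).

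**Figure D4:**
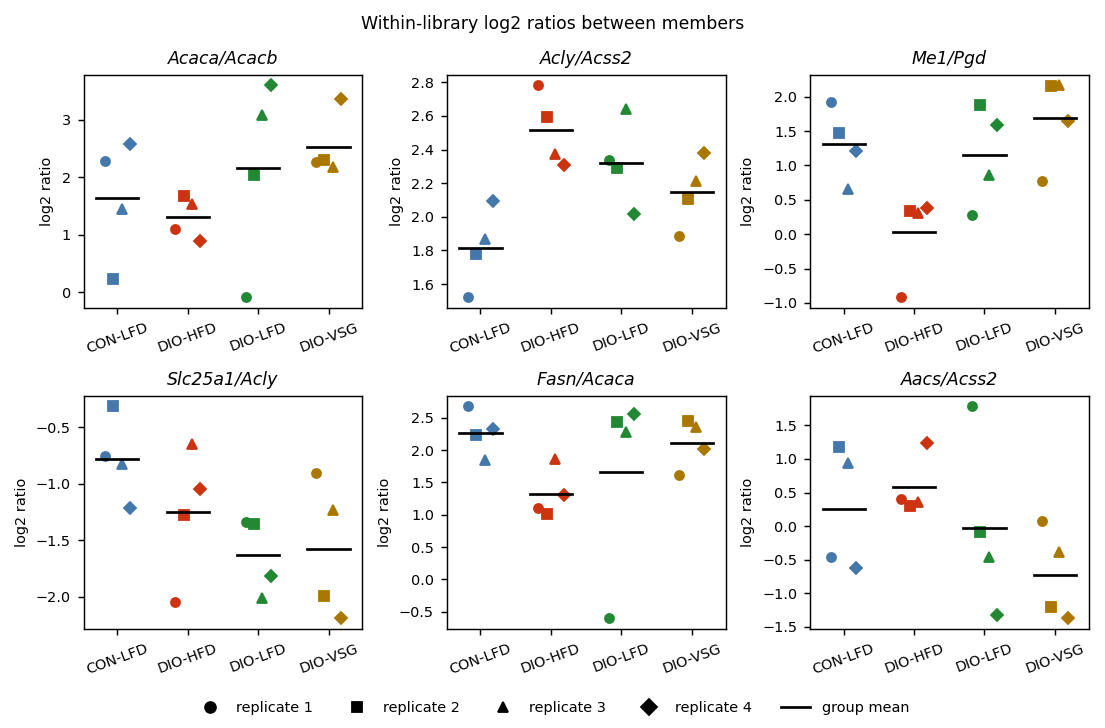
Log2 ratio of the normalized counts of 2 genes in the same library (vertical axis) by group, with symbols for replicate numbers and bars for group means. The Me1 to Pgd ratios of DIO-HFD, from -0.92 to 0.39, lie below those of the low-fat-fed libraries but for DIO-LFD replicate 1 at 0.27.

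Divided by the length of the longest coding transcript, levels can be set side by side between genes. Fasn held the highest mean level in the 3 low-fat-fed groups: 25630 ± 16060 normalized counts per kilobase in CON-LFD, 42570 ± 32280 in DIO-LFD and 40870 ± 24030 in DIO-VSG. Me1 came next in each, at 8607 ± 3842, 12730 ± 8696 and 13600 ± 7000 (SD, n = 4). In DIO-HFD the order was Pgd at 4121 ± 1359, Me1 at 3093 ± 1614, Slc25a1 at 2530 ± 987, Fasn at 2223 ± 1039 and Acly at 2140 ± 186.1, followed by Acaca at 902.4 ± 308.8, Aacs at 797.9 ± 306.4, Acss2 at 567.4 ± 78.38 and Acacb at 388.3 ± 105.7. Neighbors in each order overlapped in their ranges, except Acly and Acaca in DIO-HFD. Fasn and Acaca, adjacent steps, thus stood at 2223 and 902.4 per kilobase in DIO-HFD and at 25630 and 5120 in CON-LFD.

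Genes around the route were read from 5 lists, in which 0 genes passed the adjusted threshold of the pooled limma comparison. Of 18 genes of citrate and acetyl-CoA supply, 14 were lower in DIO-HFD at an unadjusted p below 0.05 and 0 were higher, with a median of -0.66. Over all genes 6.66% were lower by that rule and 4.98% higher, beside which the counts of each list are to be read. Pcx, pyruvate carboxylase, measured 15750 ± 7274 in DIO-HFD and 38190 ± 11770 in CON-LFD (SD, n = 4), with a pooled estimate of -1.50 (SE 0.35, limma adjusted p = 0.142). The subunits of pyruvate dehydrogenase Pdhx, Pdhb and Pdha1 had pooled estimates of -0.68 (SE 0.15), -1.01 (SE 0.26) and -0.95 (SE 0.25). Of 14 other enzymes of NADPH supply and the pentose phosphate path, 5 were lower at an unadjusted p below 0.05 and 0 higher, with a median of -0.08. They included transketolase (Tkt, -1.71, SE 0.45), transaldolase (Taldo1, -0.68, SE 0.18), Aldh1l1 (-0.94, SE 0.28) and Rpe (-0.32, SE 0.11). The list also holds the mitochondrial enzymes Me2 (0.15), Me3 (0.19) and Nnt (0.01) and H6pd (0.28) of the endoplasmic reticulum. Of its cytosolic enzymes G6pdx (0.16), which opens the pentose phosphate path, and Mthfd1 (0.14) also had estimates above 0, and none of these 6 was at an unadjusted p below 0.05.

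Of 14 genes that act on acetyl-CoA carboxylase or on its product malonyl-CoA, 3 were lower and 1 higher at an unadjusted p below 0.05, with a median of 0.00. The lower ones were Thrsp (-2.58, SE 0.65), which is known to accompany lipogenesis, malonyl-CoA decarboxylase (Mlycd, -0.43, SE 0.16) and the kinase subunit Prkaa2 (-0.56, SE 0.21). The higher one was Hlcs (0.29, SE 0.10), which attaches biotin to the carboxylases. Of 12 lipogenic transcription factors and their partners, 2 were lower and 0 higher, with a median of -0.08. Srebf1, which activates Acaca, Fasn and Acly, measured 7341 ± 1276 in DIO-HFD, 12830 ± 2636 in CON-LFD, 14760 ± 2681 in DIO-LFD and 12410 ± 2409 in DIO-VSG (SD, n = 4). Its pooled estimate was -0.85 (SE 0.16, limma adjusted p = 0.103). Mlxipl, the carbohydrate response factor ChREBP, had an estimate of -0.76 (SE 0.26, limma adjusted p = 0.272), while Insig1 was at -0.87 (SE 0.50) and Usf2 at -0.11 (SE 0.06) without reaching an unadjusted p of 0.05. The pooled medians of these 5 lists, the last being mitochondrial fatty acid synthesis at -0.22, lay beside -0.01 over all genes and -1.82 over the 9.

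**Figure D5:**
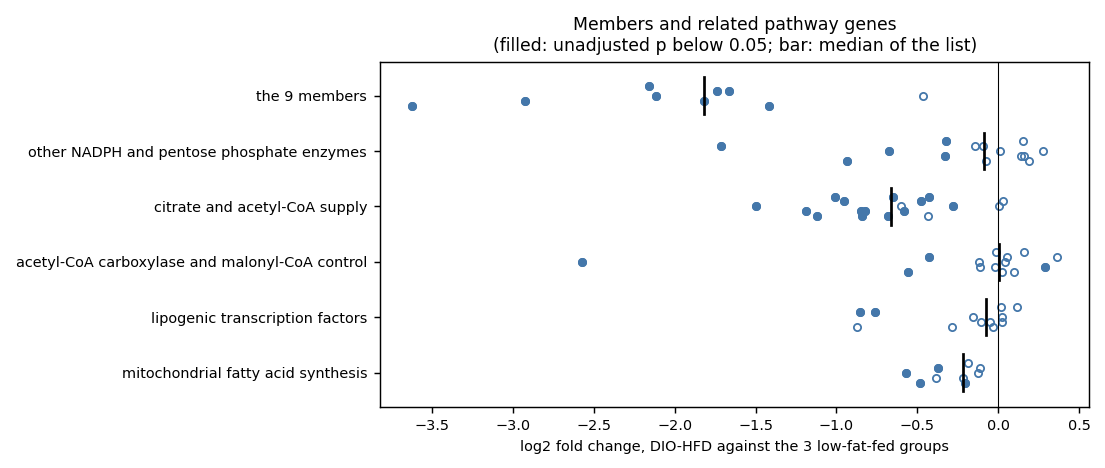
Log2 fold change of DIO-HFD against the 3 low-fat-fed groups (horizontal axis) for the 9 genes and for 5 lists around them, with filled points at an unadjusted p below 0.05 and a bar at the median of each list. The bar of the 9 genes lies at -1.82, that of citrate and acetyl-CoA supply at -0.66, and those of the other lists between -0.22 and 0.00.

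The profiles most like the mean standardized profile of the 9 genes over the 16 libraries were those of Tkt (r = 0.978), the fatty acid elongase Elovl6 (0.973), Gbe1, the glycogen branching enzyme (0.965), Pygl, a glycogen phosphorylase (0.961), and Pdhb (0.958). Gm7329 (0.954), Mpc1-ps (0.953), Pcx (0.949), Adcy10 (0.942) and the fructose transporter Slc2a5 (0.942) followed. Elovl6 measured 1564 ± 743.8 in DIO-HFD, against 15490 ± 9554 in CON-LFD, 27830 ± 25050 in DIO-LFD and 30320 ± 19440 in DIO-VSG (SD, n = 4). Slc2a5 measured 14.93 ± 13.09 in DIO-HFD and 245.9 ± 150.6, 450.8 ± 372.1 and 512.6 ± 355.3 in those groups. Mpc1-ps is a pseudogene by its name, and reads of its parent gene may have been divided with it.

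Promoter sequences are shown for 4 of the 9 genes, Fasn, Acly, Slc25a1 and Acss2, each of which holds CCAAT. Windows were taken from RefSeq on GRCm38.p6 as 250 bases before to 50 after the start site, 5′ to 3′ on the strand of the gene. All 9 genes matched, with 11 windows in all, since Me1 and Pgd have 2 each. Capitals mark CCAAT, the box bound by nuclear factor Y, and CACGTG, an E-box, on either strand. The Fasn window is chr11:120824498-120824797 (minus strand), that of Acly chr11:100527951-100528250 (minus), that of Slc25a1 chr16:17928170-17928469 (minus) and that of Acss2 chr2:155517793-155518092 (plus).
Fasn: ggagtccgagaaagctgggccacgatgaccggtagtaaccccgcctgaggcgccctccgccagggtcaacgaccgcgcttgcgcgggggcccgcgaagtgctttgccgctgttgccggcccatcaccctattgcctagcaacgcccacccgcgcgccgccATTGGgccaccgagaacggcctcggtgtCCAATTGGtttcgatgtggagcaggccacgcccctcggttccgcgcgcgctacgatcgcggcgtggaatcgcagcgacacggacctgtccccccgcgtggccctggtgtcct
Acly: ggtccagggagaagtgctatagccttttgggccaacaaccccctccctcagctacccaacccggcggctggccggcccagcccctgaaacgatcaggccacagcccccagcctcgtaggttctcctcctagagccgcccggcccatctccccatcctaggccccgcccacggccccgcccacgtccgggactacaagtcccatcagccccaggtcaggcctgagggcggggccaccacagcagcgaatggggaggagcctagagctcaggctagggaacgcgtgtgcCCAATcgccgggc
Slc25a1: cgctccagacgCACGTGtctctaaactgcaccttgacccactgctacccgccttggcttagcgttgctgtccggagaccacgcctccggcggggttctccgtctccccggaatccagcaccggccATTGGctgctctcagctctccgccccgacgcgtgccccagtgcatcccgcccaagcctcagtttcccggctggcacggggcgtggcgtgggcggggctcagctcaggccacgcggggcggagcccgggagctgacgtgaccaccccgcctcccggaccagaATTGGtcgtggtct
Acss2: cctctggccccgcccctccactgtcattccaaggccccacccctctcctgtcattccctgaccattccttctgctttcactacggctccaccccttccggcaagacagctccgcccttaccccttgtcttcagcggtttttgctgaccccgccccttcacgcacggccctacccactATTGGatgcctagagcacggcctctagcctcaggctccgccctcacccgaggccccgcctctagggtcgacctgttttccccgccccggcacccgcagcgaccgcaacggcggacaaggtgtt
In Fasn 3 CCAAT matches begin 90, 62 and 59 bases before the start site, the last 2 overlapping on opposite strands. Slc25a1 alone of the 9 genes held CACGTG, which 7.15% of all 32851 RefSeq windows of this length hold. CCAAT was found in 7 of 11 windows, against 37.4% of all windows, and GGGCGG, the GC box, in 5 of 11, against 35.7%. The windows without CCAAT were those of Acaca and Aacs, 1 of Me1 and 1 of Pgd. The sterol element core TCACNCCAC was in 0 of 11, against 1.24%. The windows of Acaca and Acacb lie inside the genes as GENCODE places them (starts at 84129672 on chromosome 11 and 114146535 on chromosome 5), so they are not the first promoters of these genes. The same holds for 1 of the 2 windows of Me1 and of Pgd, so 2 of the 7 windows with CCAAT, those of Acacb and Me1, are internal. A match of letters is a description of the window and not a binding site.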

How the data were processed

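Total RNA of mammary adipose tissue was sequenced by the authors as stranded paired-end libraries. The methods of the study name STAR and salmon with a Gencode annotation on GRCm38, while the processing notes of the submitters name TopHat2 2.0.7, HTSeq 0.5.3p9, DESeq2 and mm10. Which of these made the table was not settled here. The deposited values, 1 column per library and 0 columns without a sample, were on a log2 scale (5.36 to 21.85), as the authors' variance-stabilizing transformation gives. Inverting it gave normalized counts, and in units of the smallest step of a library 100.0% of these were whole reads (tolerance 0.05, checked up to 5000 reads). Every listed gene had 10 or more reads in all.

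Groups came from the sample titles. A gene was tested if 4 or more libraries had 10 or more normalized counts. The trend method of limma 3.58.1 (R 4.3.3) was applied to log2 of the normalized count plus 1, with all 16 libraries in 1 model and group as its term, two-sided, with Benjamini-Hochberg adjustment within each of 7 comparisons. Fold changes are on that scale. Ratios were tested by exact permutation (scipy 1.17.1), in which 4 against 12 libraries cannot give a p below 0.00055. The fit was also run on simulated counts with the same spread for every gene, a simpler setting than these data. Positions and lengths came from GENCODE M21 on GRCm38, and promoters from RefSeq. All 9 genes, the 4 genes with the smallest p of each list and the 10 most alike profiles were named. The genes and lists were chosen with earlier results of these data known. Alternatives were other scalings, pseudocounts, filters and covariates, only the groups compared, a replicate block, library weights, voom and leaving out each library. Libraries held 46907377 to 57610899 reads, and counting errors cover reads only, not the spread between libraries.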

Additional observations from a re-analysis of the deposited data

Results flagged for a closer look

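In groups of 4, a library was set apart where its gap to the nearest other, divided by the range of the group, was above Dixon's critical value at the 95% level. Over 64 groups of values (each gene, their mean and each ratio in each group) 7 exceeded it, where chance gives about 1 in 20, and the genes are not independent of each other. In DIO-VSG the lowest library, replicate 1, was set apart for Fasn (0.878), Me1 (0.924) and the mean of the 9 genes (0.896). That library had a summed adipocyte marker count of 1208236, within the 958864 to 1355959 of its group, and the lowest summed stromal progenitor count of its group, 56893 against 98257 to 168988 in the others. Its T cell sum was 48097, against 30734 to 31858 in those. In DIO-VSG the highest Acaca to Acacb ratio, 3.36 in replicate 4, gave 0.892. In DIO-HFD the lowest Me1 to Pgd ratio, -0.92 in replicate 1, gave 0.944, and that library had the lowest summed adipocyte (635877) and thermogenic adipocyte (448) counts of all and the highest B cell (105669) and T cell (51311) counts. In DIO-LFD the lowest Fasn to Acaca ratio, -0.60 in replicate 1, gave 0.911, and that library had the high red blood cell markers given above. In DIO-HFD the highest Aacs to Acss2 ratio, 1.24 in replicate 4, gave 0.901, and that library held the highest summed keratinocyte count of the series, 11954. The part of these markers in the values was not tested.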

How the results depend on the processing

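The 36 member estimates that involve DIO-HFD were recomputed 963 times, and 1 changed sign, Pgd against CON-LFD at 0.17 relative to adipocyte markers. In 36 of these recomputations a gene passed the adjusted threshold, 30 of them with library weights. With those weights 6 genes were called against CON-LFD, 7 between DIO-LFD and DIO-HFD, 8 between DIO-VSG and DIO-HFD and 9 in the pooled comparison, where 4196, 1811, 3739 and 4350 of 21218 genes were called in all (limma). Relative to adipocyte markers, which puts the median of all genes at 0.44 for DIO-HFD against CON-LFD and at 0.49 for DIO-VSG against CON-LFD, 4 genes rather than 7 were lower at an unadjusted p below 0.05 against CON-LFD, where 161 rather than 1626 of all genes were. There 1 gene, Acaca, was called in the pooled comparison (limma adjusted p = 0.0326), beside 39 genes (0.184%) in all. With a lymphoid score as covariate 1 gene, Acaca, was called there too (limma adjusted p = 0.0379), beside 149 genes (0.702%) in all. The cause of these changes was not tested.

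With single libraries left out, the genes at an unadjusted p below 0.05 and lower in DIO-HFD numbered 4 to 7 against CON-LFD, where 1005 to 2298 of 21218 genes were, with 4 beside 1128 without CON-LFD replicate 1. Those higher than in CON-LFD numbered 0 to 1 in DIO-LFD (beside 462 to 1613) and 0 to 2 in DIO-VSG (beside 891 to 3804), and the pooled comparison called 0 to 2 (beside 0 to 19). The ratio differences ran from 0.33 to 0.49 for Acly to Acss2, -1.47 to -1.04 for Me1 to Pgd, -0.13 to 0.34 for Slc25a1 to Acly, -0.94 to -0.60 for Fasn to Acaca, -1.01 to -0.67 for Acaca to Acacb and 0.52 to 0.91 for Aacs to Acss2. Against single low-fat-fed groups, Me1 to Pgd differed by -1.28, -1.12 and -1.66, and Slc25a1 to Acly by -0.48 against CON-LFD. Acly to Acss2 then ran from 0.19 to 0.70, Fasn to Acaca from -0.95 to -0.35, Acaca to Acacb from -1.23 to -0.34 and Aacs to Acss2 from 0.32 to 1.30. Relative to adipocyte markers the median of DIO-VSG against DIO-LFD was 0.34. The median of DIO-VSG against CON-LFD was 0.10 with library weights, 0.84 with the lymphoid score and 1.00 relative to adipocyte markers, and that of DIO-LFD against CON-LFD 0.20 with library weights and 0.66 with the lymphoid score.

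Deviations of same-numbered libraries correlated over -0.609 to 0.534, above 0.1 in 9 of 24 pairs. Between libraries of different numbers and groups they correlated over -0.628 to 0.742. Replicate numbers were not treated as pairs in the main fit. The fit with a replicate block called 0 of the 9 genes in each comparison, with 7 lower at an unadjusted p below 0.05 against CON-LFD, where 1520 of 21218 genes were, and a smallest pooled limma adjusted p of 0.108. The lowest value of the 9 genes, Acss2 in DIO-HFD replicate 1, rests on 1451 reads, a counting error of 2.63%, while the smallest spread between the libraries of a group was 8.70% of the mean (Acly in DIO-HFD).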

Other observations

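Mitochondrial fatty acid synthesis, a separate route that supplies lipoic acid, was measured through 9 tested genes of 10 listed. In the pooled limma comparison 4 were lower in DIO-HFD at an unadjusted p below 0.05 (6.66% of all genes), 0 were higher and 0 passed after adjustment. The acyl carrier protein gene Ndufab1 measured 2163 ± 357.1 in DIO-HFD, 3405 ± 1016 in CON-LFD, 3161 ± 377.7 in DIO-LFD and 3201 ± 950.6 in DIO-VSG (SD, n = 4). Its pooled estimate was -0.57 (SE 0.18, limma adjusted p = 0.237), beside -0.48 (SE 0.17) for Acsf3, which makes mitochondrial malonyl-CoA, -0.37 (SE 0.13) for Lipt1 and -0.20 (SE 0.09) for Mcat.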
